A study of Daphnia magna with 84 samples.

Results

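The 150 gene models described here were the least variable of the water flea Daphnia magna in a dietary coal ash experiment, out of 27350 models counted. They were chosen by their measured values: the standard deviation (SD) of log2(CPM + 1) over 81 single-animal libraries, where CPM is a model's count scaled in the usual way to the size of its library, counted without the 40 most abundant models. Only models with an APZ42 ID, a mean of 50 CPM or more, fewer than 30 exons and a place off 3 named scaffolds were eligible. That left 3680 models, and the 150 with the lowest SD are 150 of these 3680. Their low SD in those 81 libraries is therefore how they were found and is given as a description, with no test. The 3 libraries of animals at concentration 0 on day 24 took no part in the choice.

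Each library came from 1 whole animal, and all 84 libraries came from animals fed the green alga Chlamydomonas reinhardtii, itself kept with a coal ash mixture beforehand. The mixture was set by its mercury content, at 4, 1, 0.25, 0.12, 0.06 or 0.015 nM Hg/L or at 0, and it carried other coal ash constituents as well. Animals were taken on days 6, 10, 17 and 24, with 3 animals in each of the 28 groups of concentration and day. Every library carries the treatment label coal ash, those at concentration 0 included, and the labels name no genotype or clone. Ribosomal RNA was depleted and the library kit marks strand. The models carry no gene names, and 0 of the IDs matched the reference gene table, so no role is given to any of them and the whole-animal label could not be checked against marker genes. For the same reason no sequence is shown. A whole animal mixes all its tissues, and fewer cells of a type cannot be told apart from less RNA per cell.

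Genes whose transcripts stay near one level in every sample serve as a yardstick for the rest: quantitative PCR assays are scaled to such reference genes, and a reference that itself moves with age or treatment shifts every value scaled to it. In animals generally, genes for basic cell upkeep, such as transcription, protein turnover and energy supply, vary less between individuals than genes for digestion, immunity or reproduction. Daphnia grows by repeated moults and, in good conditions, releases a clonal brood at each adult moult, so the tissue make-up of a whole animal changes with both its age and its place in that cycle.

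The 81 libraries held between 11615188 and 27952023 counts, and the 40 dropped models took between 90.9% and 99.4% of them. What was left for all other models was 120113 to 1707867 counts per library, with a median of 884716. The 3 libraries at concentration 0 on day 24 kept 33522, 11869 and 19535 counts. Of the 81 libraries, 7 kept fewer than 300000 counts: all 3 at 0.12 nM Hg/L on day 24, replicates 1 and 2 at 4 nM Hg/L on day 6, replicate 3 at 0.06 nM Hg/L on day 17 and replicate 3 at 0.015 nM Hg/L on day 10.

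The SD of log2(CPM + 1) of the 150 models ran from 0.205 to 0.353 with a median of 0.324, and the median of the other 3530 eligible models was 0.664. APZ42_026487 had the lowest SD of all, 0.205. It lies on scaffold02076 from 515804 to 519068 on the plus strand, with 8 exons. Its level ran from 1182 CPM to 3277 CPM around a median of 2366 CPM. The lowest animal was replicate 2 at 4 nM Hg/L on day 6, followed by replicate 1 of that group at 1492 CPM, both among the libraries with few counts, and the highest was replicate 2 at 0.25 nM Hg/L on day 24. Its daily means stayed between 2266 ± 242 CPM on day 17 (SD, n = 21) and 2426 ± 306 CPM on day 24 (SD, n = 18), closer together than the spread of the animals on any day. The edgeR tests described below still called it lower in exposed animals on day 17 than on day 6 (log2 change -0.21, SE 0.07, edgeR adjusted p = 0.016). They also called a difference among the 27 groups for it (edgeR adjusted p = 0.0080).

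APZ42_023061 came next, with an SD of 0.221. It lies on scaffold01396 from 27186 to 35199 on the plus strand and has 15 exons. Its lowest, median and highest levels were 128, 185 and 243 CPM. It was the only one of the 150 whose highest animal was less than 2-fold above its lowest, at 1.90-fold. Day took a larger part of its small variance than in most members, 40.5% of the sum of squares, with 155.8 ± 18.99 CPM on day 6 (SD, n = 21) and 198 ± 19.3 CPM on day 17 (SD, n = 21). Another model, APZ42_023068, overlaps it on the same strand, and reads of one could have been counted for the other.

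The next models in order of SD spanned a wide range of abundance. APZ42_014195, on scaffold00389 from 589080 to 593804, had 12 exons and ran from 174.8 through a median of 308 to 402 CPM. APZ42_025665, on scaffold01928 from 1 to 3421, had 8 exons and ran from 152.4 through 232 to 403 CPM. APZ42_026191, on scaffold02059 from 1 to 4185, had 14 exons and ran from 76.7 through 125.4 to 180.5 CPM. The models APZ42_025665 and APZ42_026191 both begin at the first base of their scaffold. APZ42_014869 had 28 exons, as many as any of the 150, on scaffold00512 from 315081 to 326442. Its level ran from 847 through 1298 to 2156 CPM, with the highest value in replicate 2 at 4 nM Hg/L on day 6, the same library in which APZ42_026487 was lowest.

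APZ42_012834, on scaffold00190 from 212840 to 221875, was the only member with a single exon. It ran from 280 through 486 to 762 CPM, and APZ42_012871 overlaps it on the same strand. APZ42_007037 is a short model of 773 exon bases on contig42617, which ran from 121 through 195 to 281 CPM. APZ42_011711, on scaffold00024 from 3090593 to 3108201, had 27 exons and ran from 323 through 531 to 755 CPM. The tenth, APZ42_022851 on scaffold01361 from 2246244 to 2248885, ran from 134 through 205 to 325 CPM. For each of these 10 the animals of the 4 days overlapped widely.

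**Figure D1:**
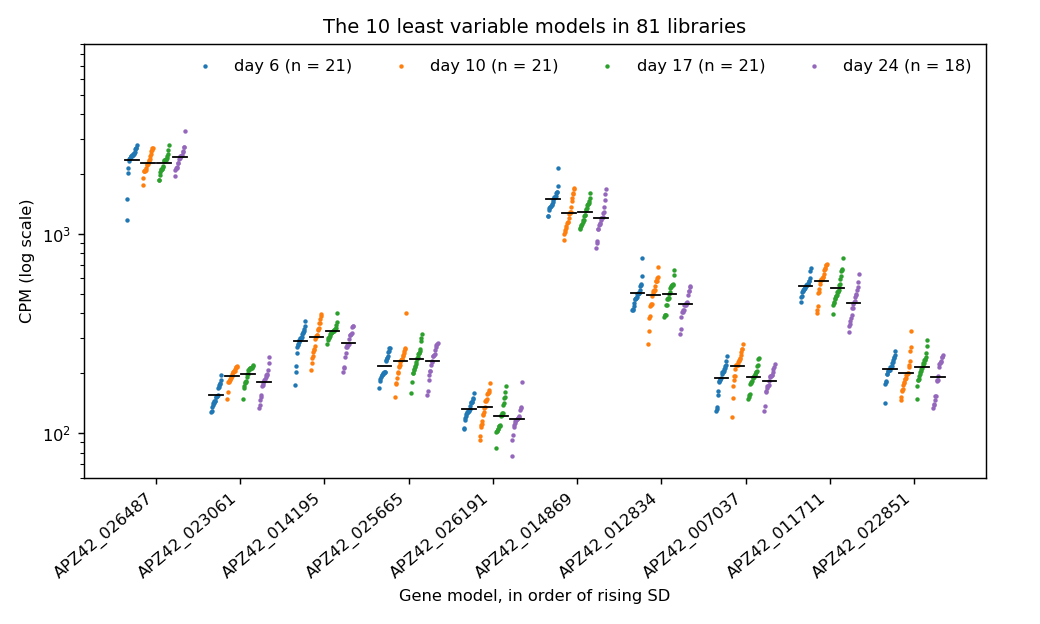
Level of the 10 least variable models in each of 81 libraries, in CPM on a log axis, with 1 point per animal coloured by day and a black line at each day's mean. APZ42_026487 stays between 1182 and 3277 CPM and APZ42_023061 between 128 and 243 CPM, and the animals of the 4 days overlap for every model shown.

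At the other end of the list the limit fell within a dense run of models. The last 3 inside were APZ42_032601, APZ42_018461 and APZ42_015253, with SDs of 0.3528, 0.3534 and 0.3534. The first 3 outside were APZ42_020601, APZ42_018234 and APZ42_033652, with 0.3537, 0.3548 and 0.3555. The model APZ42_020601 ran from 105 through 217 to 450 CPM, and APZ42_015253 ran from 300 through 523 to 850 CPM. Models on either side of the limit thus had nearly equal SDs, and the number 150 marks no gap.

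A low SD left room for single animals to stand apart. Over the 81 libraries the highest animal was 1.90-fold to 5.55-fold above the lowest, with a median of 3.11-fold, against a median of 10.3-fold for the 3096 other eligible models found in every library. The ratio stayed under 3-fold in 65 of the 150 and under 4-fold in 134. The widest range on the log2 scale, 2.45, belonged to APZ42_017988, which ran from 49.95 through 142.7 to 277 CPM. The next widest were APZ42_018461, at 66.6 through 222 to 343 CPM, and APZ42_019060, at 62.8 through 222 to 319 CPM. Their lowest values were in 2 of the libraries with fewest counts, replicate 2 at 4 nM Hg/L on day 6 for the first 2 models and replicate 3 at 0.12 nM Hg/L on day 24 for APZ42_019060.

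Counting error set part of even this small spread. With the counts each library held, Poisson counting alone would give the members SDs of 0.03 to 0.25 on the log2 scale, with a median of 0.14. It came to a median of 20.5% of a member's variance, from 1.06% to 57.6%, against a median of 6.12% among the other eligible models. After it was taken off, the members' median SD was 0.28. The median coefficient of variation of CPM was 22.1% over the 150.

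**Figure D2:**
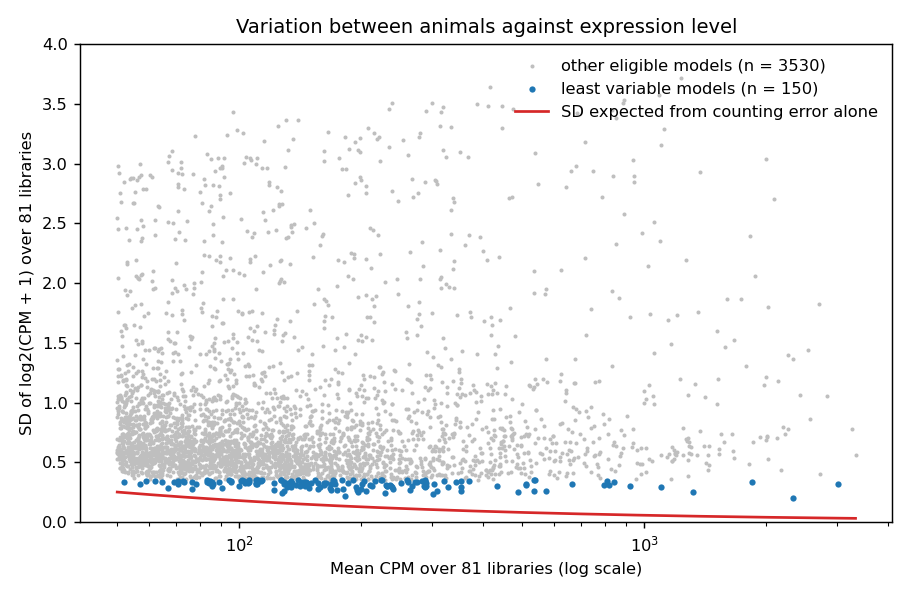
SD of log2(CPM + 1) over 81 libraries against mean CPM on a log axis, for the 150 least variable models in blue and the 3530 other eligible models in grey, with the SD expected from Poisson counting in red. The blue points form the lower edge of the cloud, between 0.205 and 0.353, and the red line comes nearest to them at the lowest levels.

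The 150 covered a wide range of abundance. Their mean level ran from 51.9 to 3007 CPM with a median of 166.04 CPM, and the median of the other eligible models was 107 CPM. Divided by exon length, the medians were 36.1 CPM per kilobase for the members and 35.7 CPM per kilobase for the others. With the eligible models cut into 5 equal bins by mean CPM, members made up 0.679% of the lowest bin, where counting error was largest, and 2.45%, 4.21%, 7.20% and 5.84% of the next bins in rising order.

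The highest member by CPM was APZ42_016539 on scaffold00626 from 1064599 to 1066987, whose animals ran from 1450 through 2996 to 4210 CPM. Its mean level per length was 1519 CPM per kilobase. After APZ42_026487, at 865 CPM per kilobase, came APZ42_022446 on scaffold01361 from 830032 to 832927, with a mean of 1006 CPM per kilobase. Next were APZ42_014869, at 177 CPM per kilobase, and APZ42_004255 on contig23954, at 1052 CPM per kilobase. The lowest 3 by CPM were APZ42_031585, APZ42_010920 and APZ42_014340, at 19.96, 22.7 and 20.3 CPM per kilobase. Their means of 51.9, 56.8 and 59.0 CPM rested on a median of 43, 45 and 48 counts per library. APZ42_031585 ran from 23.9 through 52.9 to 76.8 CPM, so even a member near the level limit kept its animals within 3.22-fold.

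The members tended to be long models with many exons, features the rule did not use beyond its upper limit of 30 exons. They had a median of 10 exons and 4110.5 exon bases, against 8 exons and 3080.5 exon bases for the other eligible models. Among eligible models with 1 to 4 exons, 14 of 963 were members, or 1.45%, and the share rose bin by bin to 44 of 648, or 6.79%, at 14 to 29 exons. Over 5 bins of exon length the share ran from 1.09% in the shortest to 5.85% in the longest. The members with most exons, 28 each, were APZ42_014869 and APZ42_010975, the second on scaffold00005 from 842113 to 852209 at 100.5 through 168.2 to 278.5 CPM. Longer models collect more counts at the same level per length, and the part of that in these shares was not tested.

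Single libraries pulled some members off their means, both libraries with few counts and others. Of 12150 values of a member in a library, 59 (0.486%) lay more than 1 on the log2 scale from that member's mean. These fell in 14 libraries, 98 members had no such value, and 45 had 1. The 10 libraries with fewest counts, at most 402931 each, held the lowest value of 74 of the 150 members and the highest value of 33. Replicate 3 at 0.12 nM Hg/L on day 24, with 143349 counts, held 24 of the lowest values, and replicate 2 at 4 nM Hg/L on day 6, with 120113 counts, held 17. Deeper libraries stood apart as well: the deepest, replicate 2 at 0 nM Hg/L on day 10 with 1707867 counts, held the highest value of 14 members, and replicate 1 at 1 nM Hg/L on day 10 with 735108 counts held the lowest of 12. Each of these held 5 values more than 1 from the mean, and replicate 3 at 0.12 nM Hg/L on day 24 held 15. Together the 150 made up 3.36% to 4.63% of a library's kept counts, with a median of 4.09%.

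**Figure D3:**
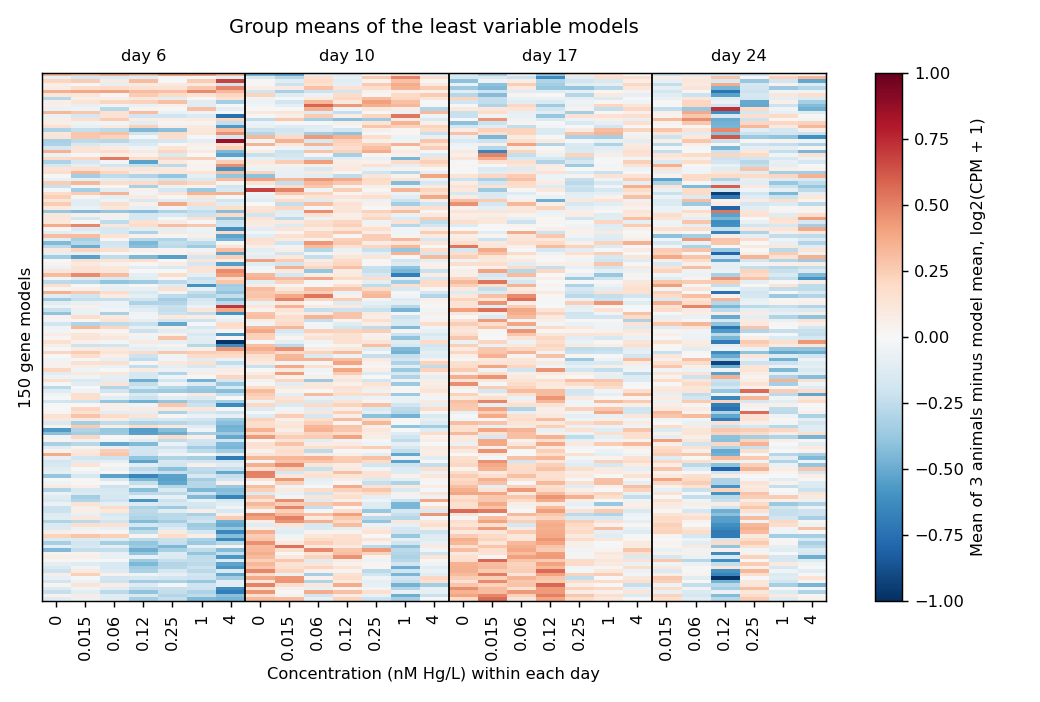
Mean of 3 animals minus the model's mean over 81 libraries, on the log2(CPM + 1) scale, for 150 models (rows, ordered by their loading on the first principal component) in 27 groups (columns, by concentration within day). Most cells are pale, and the strongest colours stand at 4 nM Hg/L on day 6 and 0.12 nM Hg/L on day 24.

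Group means were steadier than single animals, as means of 3 are by construction. The members were chosen for low SD in these libraries, so small distances were built in as well. The other eligible models were not counted in this way. Of 4050 group means, 0 lay more than 1 on the log2 scale from the member's overall mean, and 3.11% lay more than 0.5 away. Of these, 45 belonged to 0.12 nM Hg/L on day 24 and 29 to 4 nM Hg/L on day 6, which hold 5 of the 7 libraries with fewest counts. The distance between the highest and lowest group mean had a median of 0.96 and was widest, at 1.42, in APZ42_018461. Differences between the 27 groups held a median of 52.05% of a member's sum of squares, and animals within groups held 47.95%. The median share of groups was 56.7% among the other eligible models. With 3 animals a group, the spread of animals alone gives groups part of such a share. No share here was corrected for the number of groups, days or concentrations. Day alone held a median of 15.3% and concentration alone 12.7%, and the share of day was the larger in 88 of the 150 (58.7%), beside 70.7% of the other eligible models. The SD among animals of one day had medians of 0.251 on day 6, 0.293 on day 10, 0.249 on day 17 and 0.332 on day 24.

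Even these models differed between days, by small amounts. The contrasts below compare the mean of the 6 exposed concentrations on a later day with day 6. They come from edgeR's quasi-likelihood test over all 12624 models that passed the filter on low counts, with Benjamini-Hochberg adjustment and a threshold of 0.05. All 150 members passed the filter. The rule used these libraries, so the counts are descriptions, and the 3 contrasts share their day 6 animals. No member moved by more than 1 on the log2 scale in any of them, which the choice for low SD largely built in. Of the 12624 models tested, 2914 moved that far on day 10, 2311 on day 17 and 2990 on day 24.

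On day 10, 53 members were called, 31 higher and 22 lower, beside 43.8% of all models tested (23.4% higher and 20.4% lower) and 59.1% of the other eligible models. The members' log2 changes ran from -0.56 to 0.46 with a median of 0.03, and the median of all models was -0.01. On day 17, 60 were called, 27 higher and 33 lower, beside 33.2% of all models (17.8% higher and 15.4% lower) and 49.9% of the other eligible models. Their changes ran from -0.64 to 0.40 with a median of -0.02, against 0.05 for all models. On day 24, 68 were called, 43 higher and 25 lower, beside 38.8% of all models (18.8% higher and 20.1% lower) and 55.2% of the other eligible models. Their changes ran from -0.60 to 0.54 with a median of 0.04, against -0.08 for all models. The split by direction hung on the scaling. With plain totals of the kept counts it was 51 higher and 8 lower on day 10 and 61 higher and 12 lower on day 17, and the median of all models was then 0.09 and 0.22. With DESeq2's size factors the split on day 24 was 49 higher and 20 lower.

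APZ42_028620, on scaffold02452 from 296569 to 299262, was among the 2 lowest called members on each later day. Its exposed animals ran from 899 through 1162 to 1363 CPM on day 6 and from 657 through 892 to 995 CPM on day 10. On day 17 they ran from 669 through 860 to 968 CPM, and on day 24 from 426 through 786 to 1078 CPM. The later animals were lower, and the ranges of all 3 later days overlapped that of day 6. The log2 changes were -0.56 (SE 0.08, edgeR adjusted p = 8.7e-08) on day 10, -0.63 (SE 0.08, edgeR adjusted p = 8.4e-09) on day 17 and -0.57 (SE 0.08, edgeR adjusted p = 4.6e-08) on day 24.

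APZ42_014832, on scaffold00512 from 38931 to 50605, went the other way. Its exposed animals ran from 431 through 612 to 680 CPM on day 6, from 495 through 910 to 1143 CPM on day 10 and from 690 through 796 to 1054 CPM on day 17. On day 24 they ran from 617 through 836 to 1234 CPM. Every exposed animal of day 17 lay above every one of day 6, though only by 690 against 680 CPM at the nearest. These CPM rest on plain totals, where the median change of all models on day 17 was 0.22. The share of all models with no overlap was not counted. The ranges of days 10 and 24 overlapped that of day 6. The fitted log2 change of APZ42_014832 was 0.46 on day 10 (SE 0.09, edgeR adjusted p = 3.8e-05). On day 17 it was 0.24 (SE 0.09, edgeR adjusted p = 0.032), and on day 24 it was 0.49 (SE 0.09, edgeR adjusted p = 9.3e-06).

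The member highest on day 24 was APZ42_023437, on scaffold01569 from 41704 to 55415, which 2 models overlap on the other strand. Its exposed animals ran from 207 through 255 to 316 CPM on day 6 and from 298 through 394 to 487 CPM on day 24, a log2 change of 0.54 (SE 0.07, edgeR adjusted p = 2.0e-09). The ranges overlapped between 298 and 316 CPM, and day held 69.4% of its sum of squares. APZ42_027247, on scaffold02190 from 878620 to 886673, was lowest on day 24, with exposed animals at 148.6 through 176 to 200.3 CPM on day 6 and 62.8 through 116 to 156.2 CPM on day 24. Its log2 change was -0.60 (SE 0.07, edgeR adjusted p = 1.1e-09), and 2 models overlap it on the same strand.

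On day 10 the second highest member was APZ42_029763 and the second lowest was the most abundant, APZ42_016539. The exposed animals of APZ42_029763 ran from 133 through 291 to 323 CPM on day 6 and from 266 through 389 to 532 CPM on day 10 (log2 change 0.43, SE 0.09, edgeR adjusted p = 0.00014). Those of APZ42_016539 ran from 3065 through 3754 to 4210 CPM on day 6 and from 1625 through 2935 to 3518 CPM on day 10 (log2 change -0.54, SE 0.10, edgeR adjusted p = 1.2e-05). Both pairs of ranges overlapped. The level of APZ42_016539 then stayed within its animals' spread, with daily means of 2695 ± 541 CPM on day 10 (SD, n = 21), 2783 ± 463 CPM on day 17 (SD, n = 21) and 2773 ± 417 CPM on day 24 (SD, n = 18).

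On day 17 the highest called members were APZ42_018747 and APZ42_016361. The exposed animals of APZ42_018747 ran from 102.9 through 131 to 169 CPM on day 6. On day 17 they ran from 170 through 186 to 244 CPM (log2 change 0.40, SE 0.11, edgeR adjusted p = 0.0030). The 2 ranges missed each other only by 169 against 170 CPM on plain totals, where the median change of all models was 0.22. This model and APZ42_014832 were the 2 members without overlap on day 17. The share among all models was not counted, so nothing is read from that number. The exposed animals of APZ42_016361 ran from 50.4 through 68.7 to 85.1 CPM on day 6. On day 17 they ran from 68.1 through 95.9 to 132 CPM, with overlap (log2 change 0.40, SE 0.09, edgeR adjusted p = 0.00035). APZ42_032268, on scaffold03094 from 4176 to 14939, was lowest, at 244 through 308 to 436 CPM on day 6 and 173.2 through 229 to 368 CPM on day 17 (log2 change -0.64, SE 0.10, edgeR adjusted p = 1.2e-06). Its day 10 median of 327 CPM was close to that of day 6, and its day 24 median was 238 CPM.

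Across concentration fewer models were called than between days, members and others alike. The slope on the rank of the 7 concentrations, averaged over days 6, 10 and 17, called 12 members, 7 rising and 5 falling, beside 5.25% of all models (2.23% rising and 3.02% falling) and 10.7% of the other eligible models. The rule used these libraries too, so nothing is read from the count. The members' slopes ran from -0.07 to 0.08 on the log2 scale per rank. The split moved to 9 rising and 2 falling with DESeq2's size factors, to 8 and 3 with all rows kept, and to 3 and 27 with plain totals of the kept counts. Leaving out 1 library changed the number of calls by more than 1.5 times in 5 cases: 1 call without replicate 2 at 0 nM Hg/L on day 10, 6 without replicate 1 at 0 nM Hg/L on day 6, 6 without replicate 3 at 4 nM Hg/L on day 10, 6 without replicate 1 at 0 nM Hg/L on day 17 and 7 without replicate 1 at 4 nM Hg/L on day 6.

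The steepest rising slope was that of APZ42_019067, on scaffold00872 from 383941 to 387279. Over days 6, 10 and 17 its 9 animals at concentration 0 ran from 74.6 through 97.1 to 115 CPM, and its 9 animals at 4 nM Hg/L ran from 95.1 through 120 to 283 CPM. The medians of the 5 concentrations between lay from 96.8 to 110.97 CPM with no steady order. The highest animals were replicates 2 and 1 at 4 nM Hg/L on day 6, with few counts. The slope was 0.08 (SE 0.02, edgeR adjusted p = 0.013), and without the 7 libraries of few counts it was 0.05 (edgeR adjusted p = 0.063), an alternative chosen after seeing the data.

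APZ42_019959, on scaffold00944 from 1086719 to 1091040, had medians of 107.8 CPM at concentration 0, 139 CPM at 1 nM Hg/L and 150.96 CPM at 4 nM Hg/L, with all ranges overlapping (slope 0.08, SE 0.02, edgeR adjusted p = 0.022). The call ended without replicate 2 at 0 nM Hg/L on day 10 (edgeR adjusted p = 0.074) and without the libraries of few counts (slope 0.06, edgeR adjusted p = 0.11). It also ended with totals of kept counts (slope 0.05, edgeR adjusted p = 0.056) and with no filter (slope 0.08, edgeR adjusted p = 0.057). APZ42_028776, on scaffold02452 from 890920 to 900296, had medians of 590 CPM at concentration 0, 472 CPM at 1 nM Hg/L and 445 CPM at 4 nM Hg/L (slope -0.07, SE 0.02, edgeR adjusted p = 0.019). It was not called without replicate 2 at 0 nM Hg/L on day 10, its highest animal at 1105 CPM (slope -0.05, edgeR adjusted p = 0.089). The medians of APZ42_024539 were 345 CPM at concentration 0 and 248 CPM at 4 nM Hg/L, with overlapping ranges (slope -0.06, SE 0.02, edgeR adjusted p = 0.024). Its call ended without any of 5 libraries, at an adjusted p of 0.099 without replicate 2 at 0 nM Hg/L on day 10, 0.067 without replicate 1 at 0 nM Hg/L on day 6, 0.059 without replicate 1 at 4 nM Hg/L on day 6, 0.055 without replicate 3 at 4 nM Hg/L on day 10 and 0.0502 without replicate 1 at 0 nM Hg/L on day 17. It also ended with DESeq2's size factors (edgeR adjusted p = 0.054), with no filter (edgeR adjusted p = 0.094) and with all 84 libraries fitted (edgeR adjusted p = 0.076). The slopes in these 8 fits stayed between -0.046 and -0.057.

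A joint edgeR test of any difference among the 27 groups called 68 members, beside 54.9% of all models and 79.8% of the other eligible models. It ran on the libraries whose overall SD chose the members, so a low count of group differences was built into the choice and is no result. The lowest p belonged to APZ42_025063, on scaffold01794 from 11544 to 17471 (edgeR adjusted p = 5.8e-09). Its animals ran from 432 through 851 to 1436 CPM. The 3 at 0.12 nM Hg/L on day 24 had 1436, 1139 and 1228 CPM. The 3 at 4 nM Hg/L on that day had 480, 584 and 556 CPM. The model was named for its low p and these groups were picked from the 27, so a gap between them was built into the choice. The share of models with such a gap between some groups was not counted. All 3 libraries at 0.12 nM Hg/L on day 24 kept fewer than 300000 counts. APZ42_028620 and APZ42_023437, described above by day, had the next lowest p in the joint test (edgeR adjusted p = 2.7e-06 and 6.0e-06).

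The small movements of the members were partly shared. Of the 11175 pairs of members, 8077 (72.3%) had a positive Pearson r across the 81 libraries, with a median r of 0.146 and a range of -0.783 to 0.862. With the group means removed, 64.99% were positive and the median r was 0.09. All pairs share the same libraries, depths and CPM totals. The first principal component held 21.8% of the variance, and 132 of the 150 loaded on it in the same direction. Its median score was -1.51 on day 6, 0.44 on day 10, 1.16 on day 17 and -0.18 on day 24. The component was computed on plain totals. Its lowest score, -4.43, was in replicate 3 at 0.12 nM Hg/L on day 24, with a TMM scaling factor of 0.72. Its highest, 3.66, was in replicate 2 at 0 nM Hg/L on day 10, with a factor of 1.10. Whether the scores follow the scaling of the libraries was not tested.

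The pair with the steadiest ratio was APZ42_016910 and APZ42_019853, whose log2 difference had an SD of 0.157, smaller than the SD of any single member. APZ42_016910, on scaffold00642 from 1398061 to 1405255, had daily means of 473 ± 67.8 CPM on day 6, 601 ± 82.0 CPM on day 10 and 657 ± 80.0 CPM on day 17 (SD, n = 21 each), and 552 ± 70.97 CPM on day 24 (SD, n = 18). APZ42_019853, on scaffold00944 from 742010 to 750502, had 268 ± 39.3, 342 ± 73.2 and 375 ± 47.8 CPM (SD, n = 21 each) and 324 ± 54.5 CPM (SD, n = 18) on the same days. These CPM rest on plain totals, where the median log2 change of all models on day 17 was 0.22. The fitted log2 changes on day 17 in exposed animals were 0.28 (SE 0.06) for APZ42_016910 and 0.30 (SE 0.08) for APZ42_019853. Both models were lowest on day 6 and highest on day 17, and their r on plain totals was 0.848. APZ42_033876, on scaffold03276 from 383972 to 398201, followed the same course with means of 638, 902, 944 and 750 CPM, an SD of 0.178 against APZ42_016910 and an r of 0.862. APZ42_016910 had an r above 0.6 with 20 other members.

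Other pairs mirrored each other. APZ42_016290 and APZ42_028776 had the most negative r, -0.783: the animals in which APZ42_028776 was lowest, replicate 1 at 1 nM Hg/L on day 10 at 288 CPM and replicate 3 at 4 nM Hg/L on day 24 at 318 CPM, had 750 and 806 CPM of APZ42_016290. Replicate 2 at 0 nM Hg/L on day 10, where APZ42_028776 was highest at 1105 CPM, had 277 CPM of APZ42_016290. The pair APZ42_013271 and APZ42_016539 had an r of -0.685, and APZ42_028620 and APZ42_014832, which moved in opposite directions by day, had an r of -0.657.

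The 150 lay on 80 scaffolds, 53 of which held 1 member, and 73 were on the plus strand. Scaffold00512 held most, 9 of its 138 eligible models (6.52%), and scaffold00626 held 8 of 61 (13.1%). Whether members clustered by scaffold was not tested. The closest members were APZ42_014837 and APZ42_014838 on scaffold00512, on the same strand and 799 bases apart, with an r of 0.09 across animals. APZ42_014837 ran from 47.1 through 80.3 to 163 CPM and APZ42_014838 from 61.8 through 90.6 to 174.4 CPM. The next closest, APZ42_011711 and APZ42_011716 on scaffold00024, lay 11825 bases apart with an r of 0.341. At least 1 other model overlapped 42 of the members, on the same strand in 19 and on the other strand in 25, and the sources used here do not give how reads there were assigned.

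The 3 libraries at concentration 0 on day 24 are the only ones that did not choose the members. They kept so few counts that a member's pooled count over all 3 had a median of 7, and 93 members had fewer than 10. All 150 were detected in at least 1 of the 3, and so were most of the other eligible models. The members also had the higher median level, 166.04 CPM against 107 CPM, so nothing is read from their detection. Of the models with an expected pooled count of 10 or more, 0 of 77 members and 9 of 1169 others had a pooled count of 0. A pooled count of 0 would have allowed up to 46.2 CPM. In the 3 libraries, 57, 57 and 64 of the 150 lay more than 1 on the log2 scale from their mean in the other 81, where no library had more than 15. The median distance was 0.741 to 0.811 there and 0.118 to 0.434 in the 81. Depth and group cannot be told apart here, since the deepest of these 3 libraries held fewer counts than the shallowest of the 81.

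**Figure D4:**
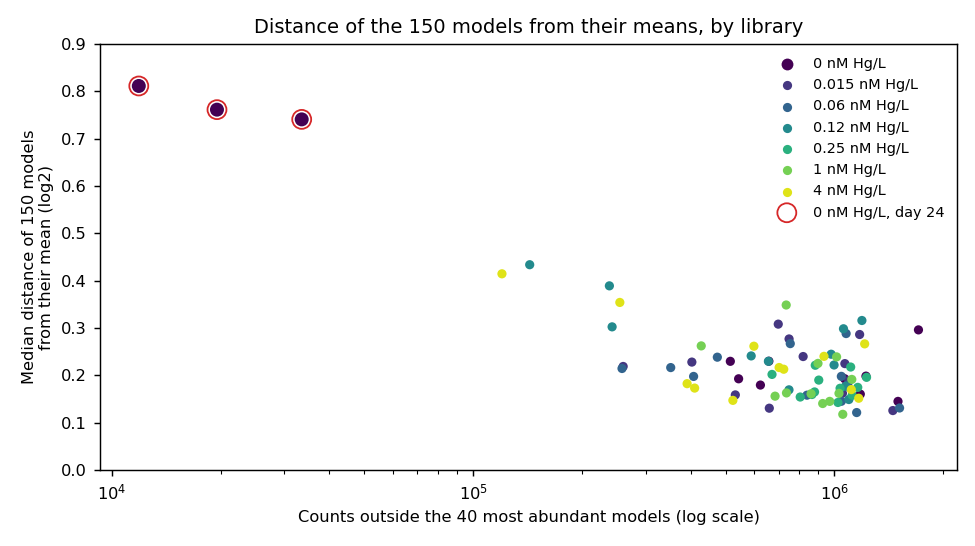
Median distance of the 150 models from their means over 81 libraries, on the log2(CPM + 1) scale, against the counts a library kept outside the 40 most abundant models (log axis), with 1 point per library coloured by concentration. The 3 ringed libraries at concentration 0 on day 24 lie at 0.741 to 0.811 with 11869 to 33522 counts, and the other 81 lie at 0.118 to 0.434.

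Pooled over the 3 libraries, a member's CPM was a median of 0.690 times its mean in the 18 exposed animals of day 24. The exact 95% Poisson interval of the pooled value, which covers counting error only, lay above that mean in 7 members, below it in 30 and around it in 113. The members off that mean were 24.7% of the 150, and among the other eligible models the share was 26.3%, with 242 above and 686 below of 3530. The direction turned with the scaling: with the median log2 ratio of the eligible models, -0.64, taken off first, the interval lay above in 22 members and below in 2, and above in 529 and below in 199 of the other eligible models. Among the 77 members with an expected pooled count of 10 or more, the log2 ratio had a median of -0.48 and an interquartile range of 0.82, and 24.7% lay beyond 1 in either direction. Among the 1169 other eligible models with as many expected counts the median was -0.68 and the interquartile range 1.28, and 41.5% lay beyond 1. At an expected count of 20 or more the interquartile ranges were 0.88 for 27 members and 1.22 for 549 others. The difference between these spreads was given no test. The 18 exposed animals in the ratio were among those that chose the members, so a smaller spread could be partly built in.

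**Figure D5:**
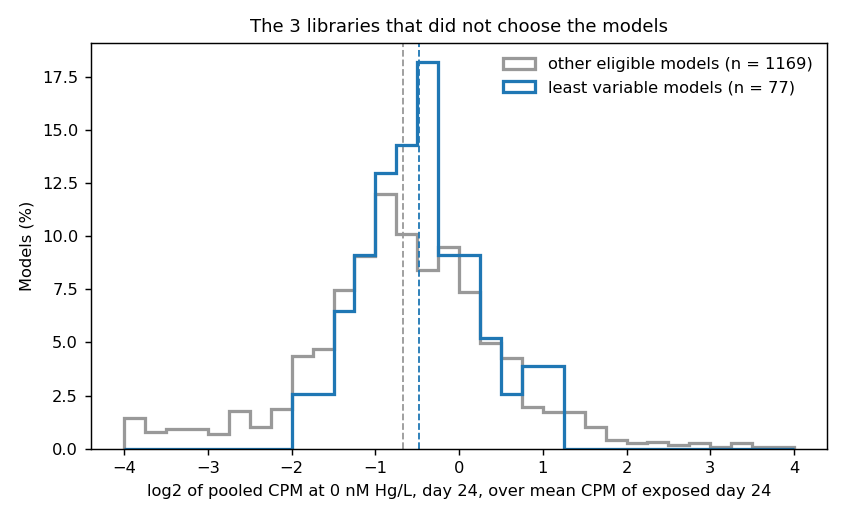
Distribution of the log2 ratio of pooled CPM at concentration 0 on day 24 to the mean CPM of the exposed animals of day 24, for models with an expected pooled count of 10 or more, as a percentage of 77 members (blue) and 1169 other eligible models (grey), with dashed lines at the medians and values beyond 4 in the end bins. The members lie closer together, with an interquartile range of 0.82 against 1.28. The exposed animals in the ratio were among those that chose the members, so this could be partly built in.

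Fitted with all 84 libraries, edgeR's quasi-likelihood test called 67.3% of the 150 members between concentration 0 and the exposed animals of day 24, 3 higher and 98 lower, beside 16.4% of all 12662 models tested, 1.45% higher and 14.9% lower. The median log2 change was -1.08 for the members, -1.07 for the other eligible models and -1.60 for all models tested. Under this scaling the members thus moved about as far down as the other eligible models. Among the other eligible models 34.0% were called. The exposed animals and most of the libraries behind the spread estimate are those on which the members were picked for small spread, which lowers the error in their tests. With DESeq2's size factors the split was 11 higher and 42 lower and the median of all models -1.01, with plain totals of the kept counts it was 9 and 45 with a median of -1.07, and DESeq2's own test called 5 members, 4 of them higher.

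The 3 members called higher at concentration 0 on day 24 stood above a downward shift. APZ42_025063 had 2088, 1432 and 1382 CPM at concentration 0, and its exposed animals ran from 432 through 721 to 1436 CPM. The lower 2 of the 3 values fell just inside the exposed range, whose top was an animal at 0.12 nM Hg/L. The log2 change was 0.61 (SE 0.15, edgeR adjusted p = 0.0035), and 1.27 by DESeq2. Without replicate 1 at concentration 0 it was 0.19 and was not called (edgeR adjusted p = 0.59).

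APZ42_032736, on scaffold03124 from 1388232 to 1401667, had 179, 84.3 and 461 CPM at concentration 0, on 16 counts in all, and 58.8 through 92.9 to 125.6 CPM in the exposed animals. One value lay inside the exposed range and the others above it. Its log2 change was 0.87 (SE 0.26, edgeR adjusted p = 0.014), and 0.26 without replicate 3 at concentration 0 (edgeR adjusted p = 0.70). The call also ended with no filter (edgeR adjusted p = 0.065) and in an older edgeR fit (adjusted p = 0.16). APZ42_028776 had 805, 843 and 1229 CPM at concentration 0 and 318 through 435 to 829 CPM in the exposed animals, so one of the 3 lay inside that range. The log2 change was 0.47 (SE 0.17, edgeR adjusted p = 0.049), and the call ended in 10 of the 21 fits that left out 1 library of day 24, with an edgeR adjusted p of 0.15 without replicate 1 and 0.33 without replicate 3 at concentration 0. With no filter and in an older edgeR fit the adjusted p was 0.15 as well. This model also had one of the 2 steepest falling slopes on concentration over days 6, 10 and 17.

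The 3 lowest called members rested on 1 or 2 counts in the 3 libraries. APZ42_022861, on scaffold01361 from 2318929 to 2323726, had 1 count, in replicate 3, while its exposed animals ran from 70.1 through 103.1 to 168.4 CPM. The ratio of pooled to exposed CPM was 0.136 (95% Poisson interval 0.0035 to 0.760; fitted log2 change -3.36, SE 0.55, edgeR adjusted p = 5.8e-06). APZ42_024536, on scaffold01663 from 242766 to 250524, had 2 counts, and its exposed animals ran from 84.0 through 142 to 187 CPM. Its ratio was 0.222 (95% Poisson interval 0.027 to 0.803; fitted log2 change -2.70, SE 0.40, edgeR adjusted p = 6.0e-07). APZ42_032822, on scaffold03124 from 1618111 to 1621935, had 1 count against exposed animals at 37.1 through 70.4 to 110.8 CPM, and the interval of its ratio of 0.209, 0.0053 to 1.16, included 1 (fitted log2 change -2.75, SE 0.57, edgeR adjusted p = 0.00033). DESeq2 called none of these 3, with adjusted p from 0.41 to 0.62.

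The 10 least variable models themselves differed in how they fared in these libraries, and the edgeR test called 8 of them lower and did not call APZ42_025665 and APZ42_014869. APZ42_026487 had 1551, 1769 and 1433 CPM at concentration 0 on day 24, all below its exposed range of 1960 to 3277 CPM. APZ42_014869 had 2178, 1095 and 1382 CPM, with 1 value above its exposed range of 847 to 1681 CPM and 2 within it. APZ42_012834 had 447, 253 and 410 CPM beside 314 to 547 CPM, so 1 lay below. APZ42_023061, the second least variable of all, was at 179, 169 and 0 CPM on 8 counts in all, against 134 to 243 CPM, and the pooled interval of 53.2 to 243 CPM included its exposed mean of 182 CPM, while the edgeR test called it lower (log2 change -1.12, SE 0.27, edgeR adjusted p = 0.0022).

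The membership of the list rested on how it was drawn up. Between 132 and 150 of the members were chosen again when any 1 library was left out. When the SD was taken after TMM scaling 95 were chosen again, when the 3 libraries at concentration 0 on day 24 were added 81 were, and when the 7 libraries of few counts were left out 89 were. With the 40 most abundant models kept in the CPM total, fewer than 150 models passed the level limit, so each was taken whatever its SD, and 5 of the members were among them. That setting therefore tells nothing of their spread. Under every other setting tried 32 members were chosen, among them APZ42_004255, APZ42_014869 and APZ42_026487. APZ42_004255 ran from 523 through 1115 to 1478 CPM over the 81 libraries, within 2.82-fold.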

How the data were processed

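RNA-seq counts of 84 whole Daphnia magna, 3 animals in each of 28 groups, were analysed. The authors deposited 1 table of raw counts per gene model. Per the submitters' processing notes STAR 2.7.5b was used. The genome build, annotation, counting tool and strand setting were not given in the sources used here, and scaffold positions are as the deposited table gives them. CPM was computed from these counts after the 40 models with the highest summed counts were dropped (the same 40 over 84 or 81 libraries), with a pseudocount of 1 CPM for log2 values. The eligible models were those off scaffold02581, scaffold01409 and scaffold03326. Counting error is the Poisson SD by the delta method. The members and all lists were chosen with earlier results of these data known.

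Tests used edgeR 4.0.16 in R 4.3.3 (filterByExpr with a minimum of 10 counts, TMM, group means, robust quasi-likelihood F test, Benjamini-Hochberg adjustment over all models tested, threshold 0.05), with 56 residual degrees of freedom over 84 libraries for concentration 0 on day 24, and 54 over 81 libraries for days, concentration and the joint test. The script was tested on simulated data. A standard error is the log2 change divided by the square root of F. Alternatives were DESeq2 1.42.0 and its size factors, limma 3.58.1 (voom with quality weights), totals of kept counts, no filter, an older edgeR fit, all rows kept, each library left out in turn and, chosen after seeing the data, no libraries under 300000 kept counts. No pair of libraries held identical values. Per the labels each library is from 1 animal, and replicates are numbered in accession order. Doubts remain from the title numbers: replicate 1 at 0.12 nM Hg/L on day 6 and replicate 1 at that concentration on day 24 carry the same number, and the number of replicate 3 at 0.06 nM Hg/L on day 24 lies among those used at 0.12 nM Hg/L. Groups follow the concentration and day labels.

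Models are named by a rule: the 10 lowest SDs, the 5 highest and 3 lowest mean CPM, 3 on each side of the limit, the most extreme called members of each contrast, the 3 widest ranges, the 2 with most exons, the 2 closest pairs and the 2 steadiest pairs. APZ42_016290 and APZ42_013271 were chosen after their correlations were seen, and overlapping models are named where a member has them. Intervals and limits on counts cover counting error only.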

Additional observations from a re-analysis of the deposited data

How the results depend on the processing

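The number of members called at concentration 0 on day 24 (98 lower and 3 higher) was 53 with DESeq2's size factors, 54 with totals of kept counts, 66 with no filter, 5 by DESeq2 and 43 by an older edgeR fit. Without the filter, 32 members were called on day 10, 42 on day 24, 2 for the slope on concentration and 16% in the joint test. The slope called 12 members, and 30 with totals of kept counts, 19 by limma-voom, 7 with all 84 libraries fitted, 7 without the libraries of few counts and 1 to 18 without 1 library. The joint test called 45.3% of the members, and 86% by limma-voom. Of the 150 members, 95 were chosen again with TMM-scaled library sizes, 5 with all rows in the CPM total (where every eligible model was taken whatever its SD), 81 with all 84 libraries, 93 by the SD within groups and 89 without the libraries of few counts. Over all models the alternatives called 259 to 3427 in place of 2075 at concentration 0 on day 24, and 212 to 1155 in place of 663 for the slope (73 to 1225 without 1 library). For the members named in the contrasts, 35 of 1002 refits ended a call and 0 reversed a direction. The members' median SD was 0.324, and 0.266 with group means removed. The cause of these changes was not tested, except that fewer samples or more models entered some fits by construction. Depth limits the 3 libraries at concentration 0 on day 24 most, where 93 members had fewer than 10 counts in all. Between scalings the median log2 change of all models in that contrast moved from -1.60 to -1.01. No paired analysis was possible because the groups compared share fewer than 2 title numbers: 1 number stands on 2 libraries, both at 0.12 nM Hg/L, on days 6 and 24.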
